A study of Homo sapiens with 13 samples.

Results

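The replication-dependent histone genes encode the core and linker histones that package newly made DNA. All rows of the deposited tables whose symbol begins with HIST1H, HIST2H, HIST3H or HIST4H were taken, which gave 85 of 56831 rows: 8 of class H1, 21 of H2A, 25 of H2B, 15 of H3 and 16 of H4. The choice used the symbol and no measured value. Of these members 71 were protein-coding and 14 were pseudogenes in RefSeq, and 64 lay in the HIST1 cluster on chromosome 6 (25726063 to 27893891, GRCh38.p14), 16 carried the HIST2 prefix on chromosome 1, 4 lay in the HIST3 cluster on chromosome 1 (228424845 to 228464575) and 1 on chromosome 12. Of the 16, 13 lay between 149782689 and 149887965 and HIST2H2BA, HIST2H2BB and HIST2H3PS2 elsewhere on chromosome 1. RNA was sequenced from H82 and H146, established small cell lung cancer (SCLC) lines with wild-type genotype in the labels. Untreated cells (3 libraries of H82 and 3 of H146) were compared with cells kept for 14 days in FHD-286 at 100 nM, renewed every 48 h (3 libraries of H82 and 4 of H146). FHD-286 inhibits the ATPases SMARCA2 and SMARCA4 of the SWI/SNF chromatin remodeling complexes. Every library came from cells grown in RPMI medium with serum, the untreated ones are labelled with no treatment and no vehicle, and nothing in the labels places the replicates in separate cultures, so *p* values measure the spread between libraries only, which may be technical. In bulk RNA, fewer cells in S phase and less histone RNA per cell cannot be told apart.

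Most histone mRNA is made in S phase, when DNA is copied, and is removed when copying ends. These mRNAs have no introns and normally no poly(A) tail. They end in a stem-loop that SLBP, the stem-loop binding protein, holds through processing, translation and decay, while NPAT drives transcription of the clusters. H2A and H2B genes often sit head to head on opposite strands and share the short promoter between their start sites.

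The stem-loops of the members on which the results below turn are shown first, because they are the feature that sets this RNA apart from other mRNA in how it is made and captured. All 71 coding members held the pattern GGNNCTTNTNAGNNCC on the transcript strand, against 250 of 62700 genes (0.399%) in GENCODE release 44. Capitals mark its 16 bases, with up to 5 bases of transcript on each side.
HIST1H1C: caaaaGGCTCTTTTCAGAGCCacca
HIST1H2BK: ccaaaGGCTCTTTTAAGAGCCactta
HIST2H2AC: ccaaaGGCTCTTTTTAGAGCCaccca
HIST2H2BE: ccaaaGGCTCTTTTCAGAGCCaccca
HIST3H2A: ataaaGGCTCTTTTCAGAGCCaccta
HIST1H4I: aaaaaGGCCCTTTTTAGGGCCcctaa
HIST4H4: caaaaGGCCCTTTTCAGGGCCccca
The stem was the same in H1, H2A and H2B members above and differed in H4. The form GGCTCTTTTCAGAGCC was found in 41 members, none of them H4, and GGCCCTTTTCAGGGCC in 10, all of them H4. A GENCODE transcript that lacked the stem-loop or ran over 100 bases past it was listed for 19 of the 71 coding members, among them HIST2H2BE (up to 1729 bases past it), HIST3H2A (1110) and HIST4H4 (1510). Such longer transcripts can carry a poly(A) tail.

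The intervals between 3 head-to-head pairs are shown because the members with the largest differences lie beside them. They come from RefSeq promoters (GRCh38.p14), are written 5′ to 3′ on the strand of the named gene, and hold in capitals each match, on either strand, to the TATA box (letters TATAAA), to the CCAAT box, or to the octamer ATTTGCAT, which H2A and H2B promoters are known for.
HIST2H2AC, up to HIST2H2BE, chr1:149886683-149886917, plus strand: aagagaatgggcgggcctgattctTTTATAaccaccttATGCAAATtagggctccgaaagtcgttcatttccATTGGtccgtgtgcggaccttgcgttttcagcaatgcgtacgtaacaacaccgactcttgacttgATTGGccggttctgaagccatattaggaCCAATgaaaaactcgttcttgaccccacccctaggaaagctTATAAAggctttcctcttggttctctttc
HIST3H2BB, up to HIST3H2A, chr1:228457874-228458102, plus strand: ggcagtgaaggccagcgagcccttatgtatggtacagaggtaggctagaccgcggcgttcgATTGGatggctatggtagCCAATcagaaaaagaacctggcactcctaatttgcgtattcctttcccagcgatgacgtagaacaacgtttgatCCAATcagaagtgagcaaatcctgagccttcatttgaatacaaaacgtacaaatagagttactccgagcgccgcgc
HIST1H2BK, up to HIST1H2AH, chr6:27146859-27147105, minus strand: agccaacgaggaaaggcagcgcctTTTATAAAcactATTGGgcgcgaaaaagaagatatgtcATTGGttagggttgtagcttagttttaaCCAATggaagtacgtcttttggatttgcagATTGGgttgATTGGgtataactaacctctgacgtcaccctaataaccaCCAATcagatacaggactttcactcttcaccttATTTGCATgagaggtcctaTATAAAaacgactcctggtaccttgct
The interval of HIST2H2AC and HIST2H2BE held 2 TATA, 3 CCAAT and 1 octamer match, and that of HIST1H2BK and HIST1H2AH held 3 TATA matches, of which some overlap on opposite strands, 6 CCAAT and 1 octamer. That of HIST3H2BB and HIST3H2A held 3 CCAAT matches and neither other motif. Promoters in RefSeq (250 bases before to 50 after a start) were matched for 66 members. The octamer stood in 26 of them against 1.77% of 35116 promoters, and by class in 11 of 16 H2A, 14 of 18 H2B, 1 of 13 H3 and none of the 6 H1 or 13 H4 promoters. CCAAT was in 56 against 34.6%, TATAAA in 45 against 11.5%, and the H1 box AAACACA in 9 against 5.64%, with all 6 H1 promoters among the 9. A match is a run of letters and was not tied to binding.

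Values are TPM, a measure of transcripts that the authors scaled for gene length and to the same total in each library. Few members were high: 10 of the 85 were listed at 0 in all 13 libraries, 64 reached 1 TPM in some library, 21 reached 10 TPM, and 3, HIST1H1C, HIST1H2BK and HIST3H2A, reached 100 TPM. Summed over coding members, untreated H82 libraries held 312 ± 19.7 TPM (SD, n = 3) and untreated H146 libraries 449 ± 41.1 TPM (n = 3). The leading gene differed by line. HIST1H1C, which encodes the linker histone H1.2, made up 30.7% of the sum in untreated H82, and HIST3H2A, an H2A gene of the HIST3 cluster, 34.9% in untreated H146. After treatment HIST1H2BK, an H2B gene, led in both lines, with 23.2% of the sum in H82 and 30.1% in H146.

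Class sums were set in part by single genes, and the overall sum overlapped between groups in each line. The coding total was 303 ± 40.0 TPM (n = 3) in treated H82 and 485 ± 140 TPM (n = 4) in treated H146, and treated and untreated libraries overlapped in both lines. In H82 the H1 sum was lower in every treated library, at 103 ± 8.18 TPM untreated and 47.1 ± 7.39 TPM treated, and so was the H4 sum, at 52.2 ± 8.12 and 34.7 ± 7.08 TPM. HIST1H4C, the leading H4 gene, carried most of that H4 difference, with means of 31.4 and 14.5 TPM, and its own groups overlapped. The H4 sum was not recomputed without HIST1H4C. Its log2 ratio in H82 was -0.59, and -0.091 with libraries scaled by the median of ratios. The H2A sum of H82 was higher in every treated library, at 67.6 ± 6.89 against 95.1 ± 8.90 TPM. The H2A sum of H146 went the other way, from 212 ± 18.7 to 107 ± 29.8 TPM without overlap, while its H2B sum was higher, at 113 ± 15.7 against 257 ± 85.7 TPM. H2B in H82 (70.7 ± 4.69 and 111 ± 44.9 TPM), H3 in both lines, and H1 and H4 in H146 overlapped between the groups. The sums carry no test. With their leading gene left out, a step chosen after the values were seen, the H1 sum of H82 without HIST1H1C was 7.17 ± 2.76 TPM untreated and 7.24 ± 2.01 TPM treated, and the H2A sum of H146 without HIST3H2A was 55.4 ± 5.31 and 51.1 ± 14.3 TPM. Both then overlapped between groups. The H2A sum of H82 without HIST3H2A remained higher in every treated library, at 50.2 ± 2.01 against 58.4 ± 0.913 TPM. Without HIST1H2BK the H2B sum of H82 was lower in every treated library, at 65.0 ± 4.96 against 40.6 ± 8.81 TPM, and that of H146 remained higher, at 69.9 ± 4.75 against 111 ± 53.8 TPM.

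**Figure D1:**
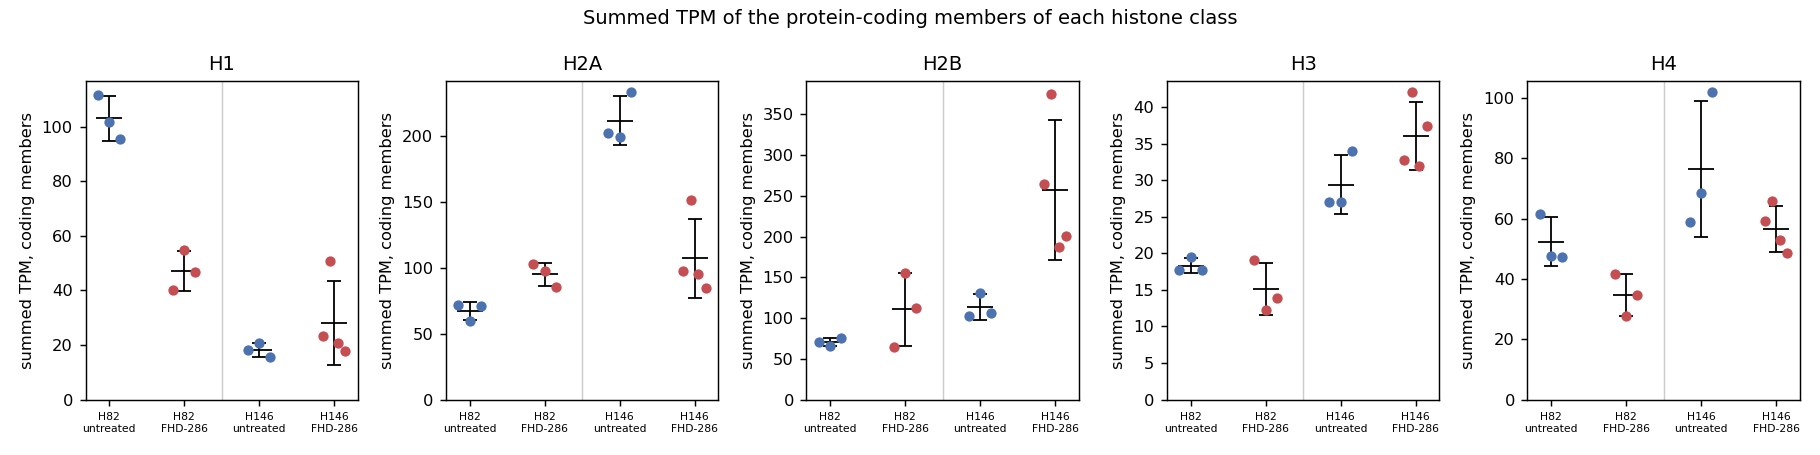
Summed TPM of the coding members of each histone class in each library, untreated and FHD-286-treated, for H82 and H146. Points are libraries, horizontal ticks are group means and vertical bars are the SD. H2A points of treated H82 lie above all untreated ones, whereas those of treated H146 lie below all untreated ones.

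The libraries differed in ways that touch these values. Mitochondrial genes held 22.1% to 24.1% of TPM in untreated and 12.3% to 14.9% in treated H82. In H146 they held 7.56% to 8.86% and 3.82% to 11.4%. Treated replicate 1 of H82 stood apart from replicates 2 and 3. Its median absolute log2 difference from them was 0.381 and 0.386 over genes at 50 to 500 TPM, against 0.110 between those replicates. Between 15554 and 16633 genes reached 1 TPM in treated H82 against 21227 to 21772 in untreated H82, and the median log2 fold change over all genes tested was -0.56 in H82 and 0.25 in H146. Scaling libraries by the median of ratios moved those medians to -0.14 and -0.02, so the single-gene changes below are on the log2(TPM + 1) scale and are best read against -0.56 and 0.25. Treated replicate 2 of H146 was far above its group for several members. The labelled cell type was checked against neuroendocrine markers, and SYP, a synaptic vesicle protein, was at 193 to 212 TPM in untreated H82 and 78.2 to 93.3 TPM in untreated H146.

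In H82, 40 members passed the filter of 1 TPM in 3 libraries, and 10 fell and 7 rose with FHD-286 (limma, adjusted *p* under 0.05, two-sided). Over all 19770 genes tested 45.5% were called lower and 13.1% higher. The median member was at -0.34 and the median gene at -0.56. Every treated library was below every untreated one for 13 of the 40 and above for 6, where this held for 51.4% and 16.4% of all genes. The median of ratios gave 4 lower and 8 higher, with a member median of 0.05, and quantile normalization 2 and 13. The count of falls was 5, 4 and 5 without untreated replicate 1, 2 or 3, and the count of rises 4, 4 and 3. Without treated replicate 1, 2 or 3 the rises numbered 4, 2 and 3. Of the 17 calls, 5 were kept without each library in turn, those of HIST1H1C, HIST1H2AE, HIST1H2BK, HIST2H2BE and HIST1H4I, although HIST1H4I dropped under the filter without any treated library and could be refitted only for the untreated ones.

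HIST1H1C was the only H1 member called in H82. It was at 108, 92.1 and 88.0 TPM in untreated libraries and at 33.1, 49.3 and 37.1 TPM in treated ones. Every treated library was below every untreated one, by 2.41-fold in the means (log2 fold change -1.26, SE 0.18, adjusted *p* = 0.0013). The other 2 H1 genes tested in H82, HIST1H1B and HIST1H1E, were not called (log2 fold changes 0.14 and 0.21, adjusted *p* = 0.71 and 0.57). HIST1H1D was below the filter, at 0.576, 3.12 and 0.615 TPM against 0.359, 0.417 and 0.575 TPM (exact permutation *p* = 0.1, the smallest that 3 against 3 allows).

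Of 10 H2A genes tested in H82, 3 were called higher and 1 lower, beside 13.1% and 45.5% of all genes tested. HIST2H2AC, from the HIST2 cluster, was at 10.3, 3.32 and 15.2 TPM untreated and at 26.3, 22.4 and 18.0 TPM treated. HIST3H2A was at 23.4, 9.56 and 19.2 TPM untreated and at 43.9, 40.0 and 26.2 TPM treated. Both were higher in every treated library, with log2 fold changes of 1.31 (SE 0.47, adjusted *p* = 0.045) and 1.09 (SE 0.35, adjusted *p* = 0.03), and in both, untreated replicate 2 was the lowest. Without it the log2 fold changes were 0.76 and 0.73 and neither was called. HIST2H2AC was called in only 1 of 6 refits that left out a library, the one without untreated replicate 3, and HIST3H2A in 2, those without untreated replicate 1 or treated replicate 3. HIST1H2AE, an H2A gene of the HIST1 cluster, fell from 17.0, 15.3 and 16.1 TPM to 8.92, 8.18 and 8.77 TPM (log2 fold change -0.83, SE 0.15, adjusted *p* = 0.0029), with little spread inside either group. Its call was lost under the median of ratios (-0.38, adjusted *p* = 0.064) and quantile normalization (-0.26, adjusted *p* = 0.17). HIST1H2AC, a HIST1 gene for H2A, was not called in H82 (-0.31, adjusted *p* = 0.24).

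On the log2(TPM + 1) scale, H2B held the largest rise and the largest fall of the coding members tested in H82, whereas by the ratio of group means the H4 genes HIST1H4I (13.2-fold higher) and HIST4H4 (3.75-fold lower) came first. HIST1H2BK was at 9.06, 3.40 and 4.84 TPM untreated and at 32.0, 105 and 74.0 TPM treated. The groups stood well apart, 12.2-fold in the means, although the treated libraries differed widely among themselves (log2 fold change 3.33, SE 0.48, adjusted *p* = 0.0012). HIST2H2BE, an H2B gene of the HIST2 cluster, was at 17.3, 13.1 and 19.3 TPM untreated and at 3.27, 6.83 and 3.43 TPM treated, with no overlap (log2 fold change -1.72, SE 0.29, adjusted *p* = 0.0023). HIST1H2BO also fell, from 6.04, 13.6 and 7.52 to 1.88, 4.37 and 3.68 TPM (-1.20, adjusted *p* = 0.024), and HIST1H2BL rose from 1.96, 0 and 0.839 to 2.69, 4.83 and 3.92 TPM (1.43, adjusted *p* = 0.021). The call of HIST1H2BO was lost without untreated replicate 2 or 3, under the median of ratios (-0.79, adjusted *p* = 0.089) and under quantile normalization (-0.36, adjusted *p* = 0.47), and that of HIST1H2BL without untreated replicate 2 or 3 or treated replicate 2 or 3. All 3 pseudogenes tested in H82 were H2B copies with the HIST2 prefix and all 3 fell, HIST2H2BC by 1.16, HIST2H2BA by 1.04 and HIST2H2BD by 0.96 on the log2 scale (adjusted *p* = 0.015, 0.036 and 0.031). None of these 3 was called under the median of ratios, and the calls were lost without untreated replicate 1 (HIST2H2BC), without untreated replicate 1 or 2 or treated replicate 2 (HIST2H2BD), and without replicate 2 or 3 of either group (HIST2H2BA). HIST1H2BJ, another H2B gene, was not called (-0.16, adjusted *p* = 0.8).

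No H3 gene was called in H82 among 4 tested with limma. At an unadjusted *p* under 0.05, 1 was lower, HIST1H3J (-0.65, adjusted *p* = 0.066). In class H4, 2 of 8 tested rose and 2 fell, beside 13.1% and 45.5% of all genes tested. HIST1H4I was at 0.148, 0.200 and 0.791 TPM untreated and at 2.86, 6.76 and 5.42 TPM treated (13.2-fold in the means, log2 fold change 2.09, SE 0.32, adjusted *p* = 0.0016), all 3 treated libraries above the untreated ones. It lies inside the span of HIST1H2BK in RefSeq, on the other strand, while GENCODE release 44 lists no exon overlap between these genes. Whether they share reads was not tested. HIST1H4J rose from 2.57, 3.48 and 2.74 to 5.45, 6.70 and 4.45 TPM (0.72, SE 0.22, adjusted *p* = 0.024), a call lost without untreated replicate 1 or 3 or treated replicate 2. HIST4H4, the member on chromosome 12, fell from 1.04, 2.11 and 1.35 to 0.371, 0.484 and 0.346 TPM (-0.82, SE 0.22, adjusted *p* = 0.015). Under quantile normalization that direction turned, to 0.05 with adjusted *p* = 0.85, and without treated replicate 3 the call was lost (adjusted *p* = 0.0503). HIST4H4 and HIST1H4I each passed the filter through 1 group alone, untreated for HIST4H4 and treated for HIST1H4I. Such entry favours the direction in which each was called, so these calls are a description and no separate support. HIST4H4 could be refitted without each treated library but not without an untreated one. HIST1H4C, the most abundant H4 gene, was at 41.0, 22.7 and 30.6 TPM untreated and at 23.6, 6.70 and 13.2 TPM treated. These groups overlapped, and its call (-1.18, SE 0.43, adjusted *p* = 0.048) was lost in 5 of 6 refits that left out a library, all but that without treated replicate 1, and under the median of ratios (-0.71, adjusted *p* = 0.22). Without treated replicate 2 its log2 fold change was -0.75.

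In H146 more members passed the filter, 56 of 85. With FHD-286, 17 rose and 11 fell, against 32.5% higher and 15.5% lower over all 19585 genes tested, and the median of the members and of all genes was 0.25 in each case. All treated libraries were above all untreated ones for 20 of the 56 and below for 6, against 35.7% and 17.3% of all genes. The median of ratios gave 11 higher and 15 lower, with a member median of -0.05, and quantile normalization 11 and 16. The falls numbered 5, 7 and 5 without untreated replicate 1, 2 or 3, were 7 without treated replicate 1, 3 or 4, and were 15 without treated replicate 2. The rises numbered 11 without untreated replicate 1 or 3. Of the 28 calls, 14 were kept without each library in turn.

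Of 19 H2B members tested in H146, 7 rose and 3 fell, and 36.8% higher stood beside 32.5% of all genes. HIST1H2BK was at 37.7, 58.9 and 33.5 TPM untreated and at 171, 185, 102 and 126 TPM treated, above every untreated library (3.37-fold, log2 fold change 1.73, SE 0.25, adjusted *p* = 0.001). HIST1H2BG, from the HIST1 cluster, lay at 1.89, 1.94 and 1.93 TPM untreated and at 7.52, 12.4, 8.04 and 6.66 TPM treated (1.69, SE 0.21, adjusted *p* = 0.00048). HIST1H2BD was at 8.98, 9.14 and 9.92 TPM untreated and at 20.7, 32.2, 17.7 and 16.3 TPM treated (1.09, SE 0.22, adjusted *p* = 0.0048). These 3 H2B genes kept their call without each library in turn and under both scalings. In H82 the latter pair was not called (-0.45 with adjusted *p* = 0.13, and -0.28 with adjusted *p* = 0.34).

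HIST2H2BE was higher in H146, at 5.37, 6.30 and 4.30 TPM untreated and 17.4, 68.1, 11.6 and 10.5 TPM treated. All treated libraries exceeded the untreated ones, with replicate 2 far above the rest (log2 fold change 1.73, SE 0.56, adjusted *p* = 0.033). Without treated replicate 2 the change was 1.15 with adjusted *p* = 0.0023, whereas the call was lost without any 1 untreated library or treated replicate 1, and under the median of ratios (1.44, adjusted *p* = 0.076). HIST1H2BB was near 0 untreated (0, 0.252 and 0.229 TPM) and at 2.31, 0.559, 7.60 and 3.94 TPM treated (1.74, SE 0.50, adjusted *p* = 0.02), a call lost without any 1 untreated library. It was listed at 0 in all H82 libraries. HIST1H2BB passed the filter only through treated libraries, as did HIST1H1PS1, HIST1H2APS4, HIST1H3G and HIST2H2BF. All of these 5 but HIST2H2BF were called higher. Entry through treated values favours a rise, so these 4 calls, counted among the 17 rises, are a description and no separate support. HIST1H2APS4 and HIST1H3G are also among the 14 calls kept without each library in turn. The H2B pseudogenes HIST2H2BC and HIST2H2BD, which fell in H82, rose here, from 11.8, 8.77 and 7.68 to 22.7, 41.7, 24.6 and 25.7 TPM (1.49, adjusted *p* = 0.0014) and from 11.6, 13.6 and 9.39 to 26.1, 51.0, 19.1 and 17.3 TPM (1.11, adjusted *p* = 0.026). The call of HIST2H2BD was lost without untreated replicate 1 or 3 or treated replicate 1, under the median of ratios (0.81, adjusted *p* = 0.097) and under quantile normalization (0.89, adjusted *p* = 0.082).

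Both H2B members of the HIST3 cluster fell in H146. HIST3H2BB was at 9.35, 9.09 and 9.86 TPM untreated and 3.02, 7.84, 1.77 and 1.78 TPM treated (-1.36, SE 0.38, adjusted *p* = 0.019), lower in all treated libraries, and its call was lost without any 1 untreated library. The pseudogene HIST3H2BA fell from 2.39, 2.93 and 2.33 to 0.629, 0.813, 1.02 and 0.764 TPM (-0.98, SE 0.17, adjusted *p* = 0.0023). HIST1H2BJ was not called (-0.42, adjusted *p* = 0.14).

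Of 12 H2A members tested in H146, 4 were higher and 4 lower, beside 32.5% and 15.5% of all genes tested. HIST3H2A and HIST2H2AC were among the falls. HIST3H2A was at 150, 147 and 172 TPM untreated and at 59.4, 81.4, 41.6 and 42.7 TPM treated (2.78-fold lower, log2 fold change -1.51, SE 0.23, adjusted *p* = 0.0012). HIST2H2AC was at 13.9, 15.7 and 24.6 TPM untreated and at 2.82, 5.46, 3.58 and 2.05 TPM treated (5.20-fold lower, -2.11, SE 0.29, adjusted *p* = 0.00074). Neither pair of groups overlapped, and both calls were kept without each library in turn and under both scalings. HIST1H2AC rose from 5.44, 3.91 and 4.08 to 5.73, 11.04, 8.81 and 7.26 TPM (0.73, SE 0.22, adjusted *p* = 0.027), a call lost without untreated replicate 2 or 3 or treated replicate 3 and under the median of ratios (0.46, adjusted *p* = 0.12). HIST1H2AE was not called (0.22, adjusted *p* = 0.6).

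HIST1H1C rose in H146, opposite to H82 and from a lower level, 10.8, 10.9 and 7.89 TPM untreated against 16.9, 39.3, 16.2 and 15.3 TPM treated. The treated libraries were all higher, replicate 2 most of all (0.98, SE 0.32, adjusted *p* = 0.033). Without that library the change was 0.67 with adjusted *p* = 0.0067, and the call was lost without any 1 untreated library and under the median of ratios (0.68, adjusted *p* = 0.12). HIST1H1B, HIST1H1D and HIST1H1E were not called in H146 (-0.43, -0.69 and -0.28, adjusted *p* = 0.38, 0.14 and 0.55). Of 10 H3 genes tested with limma in H146, 2 rose and none fell, beside 32.5% and 15.5% of all genes tested. At an unadjusted *p* under 0.05, 2 H3 genes were lower. HIST1H3J was at 3.11, 4.33 and 3.04 TPM untreated and 12.3, 8.93, 16.1 and 17.0 TPM treated, clear of the untreated libraries (1.67, SE 0.24, adjusted *p* = 0.00082). Its exon overlaps that of HIST1H2AM on the same strand, so the value is uncertain. The other H3 genes named for their level, HIST1H3B, HIST1H3H and HIST2H3D, were not called in H146 (-0.80, 0.30 and -0.60, adjusted *p* = 0.064, 0.52 and 0.11) or in H82.

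H4 genes of H146 divided into 4 lower and 2 higher of 10 tested, beside 15.5% and 32.5% of all genes tested. HIST1H4C was at 19.5, 24.3 and 44.2 TPM untreated and at 15.9, 12.97, 12.1 and 13.6 TPM treated (-0.97, SE 0.25, adjusted *p* = 0.014), below all untreated libraries, and at -0.64 without untreated replicate 3. HIST1H4B fell from 3.31, 4.38 and 6.38 to 1.505, 2.19, 1.22 and 1.14 TPM (-1.16, SE 0.24, adjusted *p* = 0.0048). HIST1H4J was at 9.83, 8.49 and 16.9 TPM untreated and at 2.06, 9.99, 2.59 and 1.88 TPM treated (-1.503, SE 0.47, adjusted *p* = 0.028). Treated replicate 2 lay among the untreated libraries. Without it the change of HIST1H4J was -1.95 with adjusted *p* = 0.00033, and the call was lost without untreated replicate 1 or 3 or treated replicate 1, 3 or 4. HIST1H4K and HIST4H4 rose, HIST1H4K from 2.47, 4.30 and 3.08 to 5.99, 5.80, 8.59 and 7.38 TPM (0.90, SE 0.21, adjusted *p* = 0.0082) and HIST4H4 from 1.39, 1.19 and 1.56 to 4.56, 3.18, 5.08 and 4.39 TPM (1.15, SE 0.18, adjusted *p* = 0.0016). HIST1H4I was not called in H146 (0.27, adjusted *p* = 0.42).

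**Figure D2:**
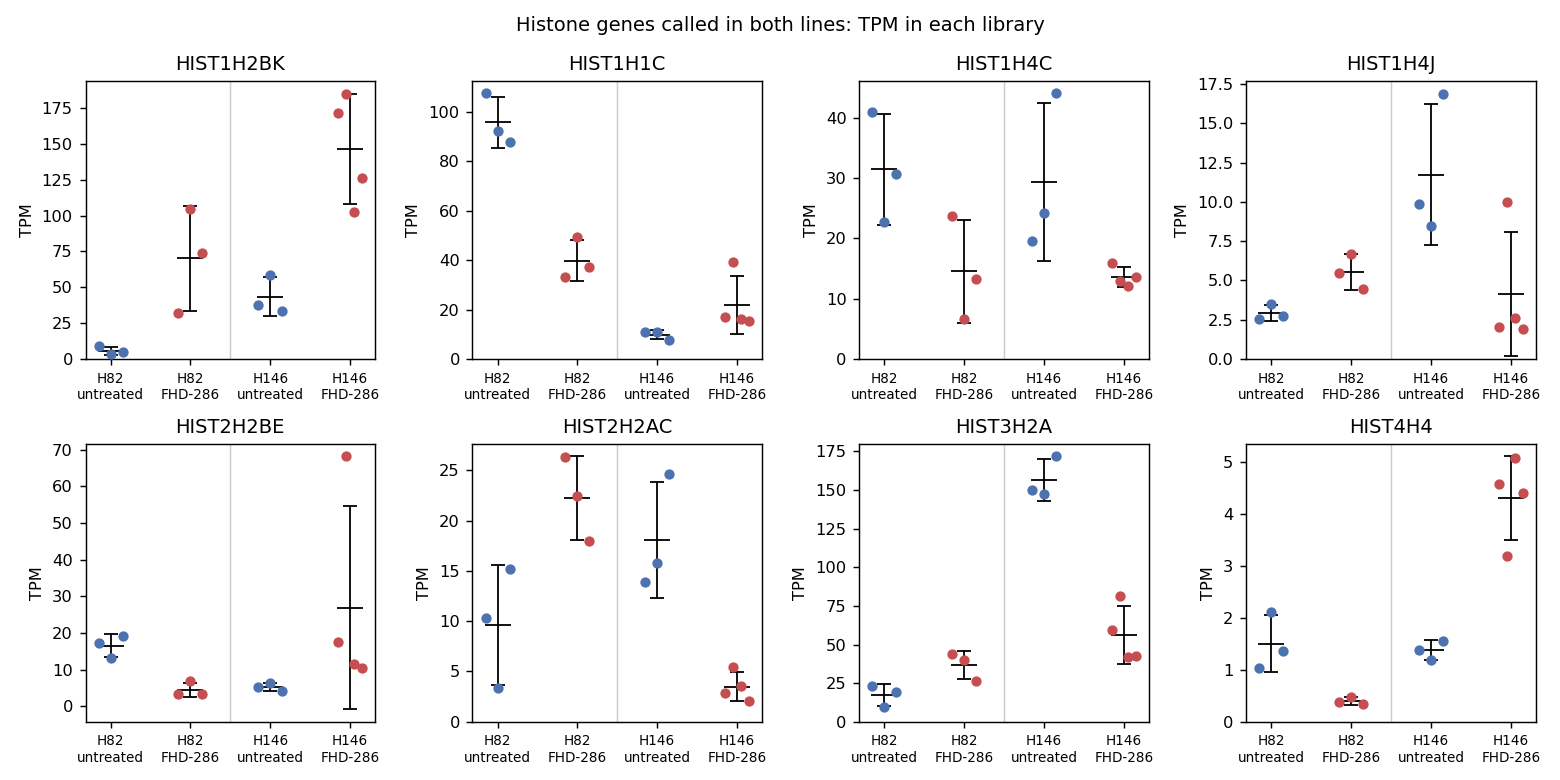
TPM on a linear axis of the coding members called in both lines, for each untreated and FHD-286-treated library of H82 and H146. The pseudogenes HIST2H2BC and HIST2H2BD, also called in both, are not drawn. HIST1H2BK is higher in all treated libraries of both lines, while HIST2H2AC and HIST3H2A are higher in treated H82 and lower in treated H146.

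Of 38 members tested in both lines, 10 were called in each, and 8 of these 10 went in opposite directions. With the median of ratios 5 of 6 called in each line were opposite, and with quantile normalization 4 of 5. Over the 15679 genes tested in both lines, 15.5% were called in opposite directions and 9.25% in the same direction, so that 62.6% of all genes called in each line were opposite. HIST1H1C, HIST2H2BE, HIST2H2BC, HIST2H2BD and HIST4H4 were lower in H82 and higher in H146, and HIST2H2AC, HIST3H2A and HIST1H4J were higher in H82 and lower in H146. HIST1H2BK was higher in both lines and HIST1H4C lower in both. HIST2H2BC and HIST2H2BD lie head to head with the near-identical copies HIST2H2AA4 and HIST2H2AA3, and each overlaps an exon of another gene on the same strand. Their values are therefore uncertain, and whether these pseudogenes share reads was not tested. An interaction term in 1 fit over both lines tested whether the effect differed, and is given as H146 minus H82. It was called for 26 of 59 members, 17 higher and 9 lower, beside 46% higher and 13.3% lower of 24374 genes. The median member was at 0.22 and the median gene at 0.75, and the split was 12 lower to 10 higher with the median of ratios and 20 to 6 with quantile normalization.

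For the 8 members already set apart by their opposite calls, the interaction values are a description and no separate support. The differences were 3.44 for HIST2H2BE (SE 0.73, adjusted *p* = 0.0016), -3.42 for HIST2H2AC (SE 0.58, adjusted *p* = 0.00033), -2.60 for HIST3H2A (SE 0.44, adjusted *p* = 0.00031) and 2.24 for HIST1H1C (SE 0.41, adjusted *p* = 0.00056). HIST4H4 differed by 1.96 (adjusted *p* = 7.2e-05), HIST2H2BC by 2.65 (adjusted *p* = 0.00014), HIST2H2BD by 2.07 (adjusted *p* = 0.0035) and HIST1H4J by -2.23 (adjusted *p* = 0.0062). These 8 kept the call without each of the 13 libraries in turn. They also kept it under both scalings, except HIST2H2BD under quantile normalization (0.99, adjusted *p* = 0.14). The rise of HIST1H2BK was larger in H82 than in H146 on this scale (-1.59, adjusted *p* = 0.029), a call lost without untreated replicate 2 or treated replicate 3 of H146 and without untreated replicate 2 or 3 or treated replicate 2 or 3 of H82. HIST1H4C did not differ detectably between lines (0.21, adjusted *p* = 0.75).

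**Figure D3:**
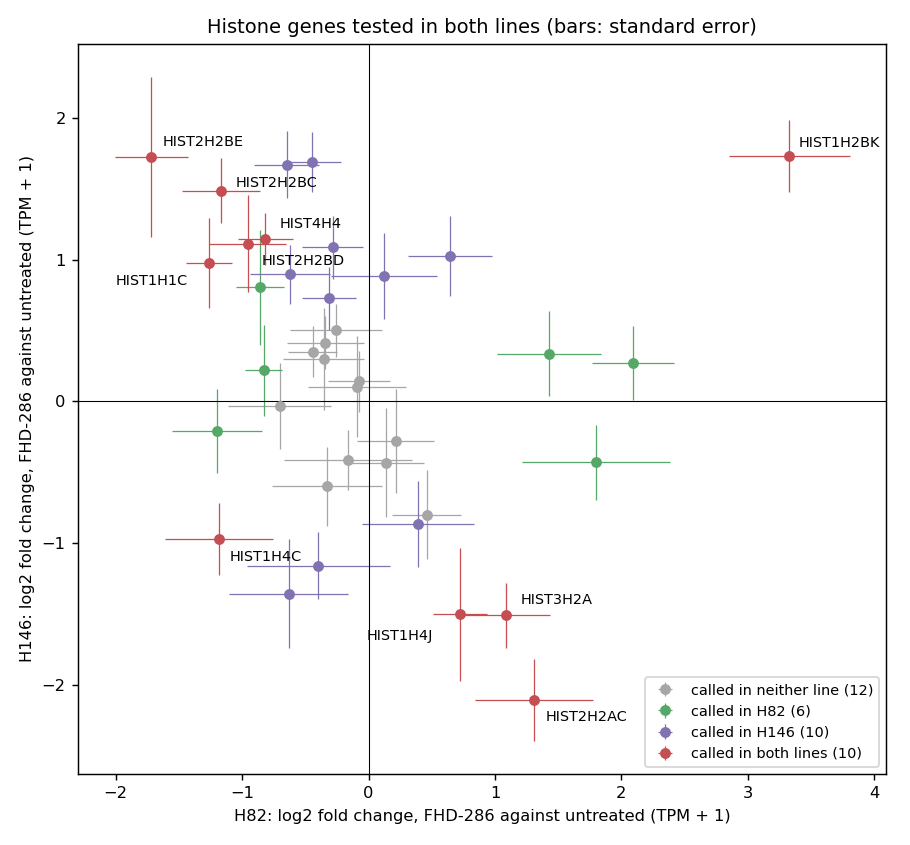
Log2 fold change of log2(TPM + 1) with FHD-286 in H82 (horizontal) against H146 (vertical) for the 38 members tested in both lines, by whether limma called them in neither (12), H82 only (6), H146 only (10) or both (10). The members called in both sit mainly in the upper left and lower right, with HIST1H2BK alone in the upper right.

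Head-to-head H2A and H2B genes were compared pair by pair. There were 16 such pairs with start sites within 500 bases. In H82 both genes of 8 pairs were tested, 3 with the same sign and 5 with opposite signs, and in H146 both genes of 10 pairs, 7 and 3. These signs were taken around 0, also for genes not called. Read against the median gene, some pairs change. HIST1H2AG and HIST1H2BJ in H82 (0.64 and -0.16) then share a sign (1.20 and 0.40). HIST1H2AE and HIST1H2BG in H146 (0.22 and 1.69) then differ (-0.029 and 1.44). The contrast in sign counts between lines thus depends on the scale. Both genes were called in 2 pairs of H82, 1 in the same and 1 in opposite directions, and in 4 pairs of H146, 3 in the same and 1 in opposite directions. HIST2H2AC and HIST2H2BE, 235 bases apart, moved against each other in each line, with 1.31 and -1.72 in H82 and with -2.11 and 1.73 in H146. HIST3H2A and HIST3H2BB, 229 bases apart, both fell in H146 (-1.51 and -1.36), while in H82 HIST3H2A was at 1.09 and HIST3H2BB at -0.63 (adjusted *p* = 0.28). HIST1H2AH, the partner of HIST1H2BK at 247 bases and described after its values were seen, was at 0, 3.35 and 0 TPM in untreated H82 and at 5.56, 3.23 and 5.60 TPM in treated H82. Its groups overlapped there, its call (1.80, adjusted *p* = 0.033) was lost without untreated or treated replicate 1 or 3, and in H146 it was not called (-0.43, adjusted *p* = 0.21).

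**Figure D4:**
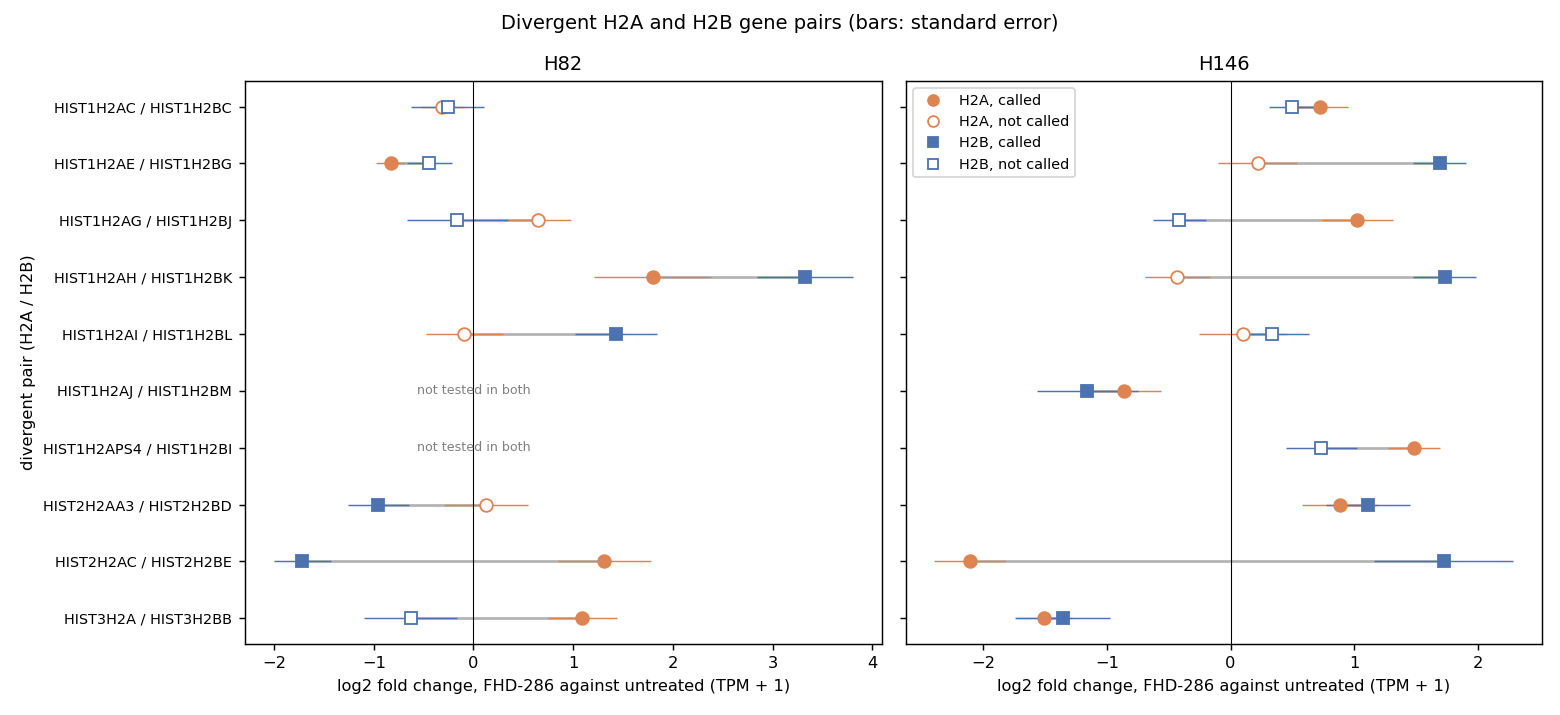
Response to FHD-286 of both genes of head-to-head H2A and H2B pairs in H82 and H146. In the pair HIST2H2AC and HIST2H2BE the genes shift in opposite directions within each line, and the directions are exchanged between the lines.

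Members with longer annotated transcripts were compared with those that end at the stem-loop, as a description. The split used GENCODE transcripts, in which HIST1H2BK ends at the stem-loop, whereas its span in RefSeq was 8566 bases. In H82, 13 of the 19 members with a longer transcript were tested, 3 lower and 1 higher with a median of -0.34. Of the other 52, 24 were tested, 4 lower and 6 higher with a median of 0.02. All genes tested in H82 were 45.5% lower and 13.1% higher, with a median of -0.56. In H146 the 14 tested with a longer transcript gave 2 lower and 5 higher with a median of 0.46. The 36 tested of the other members gave 8 lower and 8 higher with a median of -0.19. All genes tested in H146 were 15.5% lower and 32.5% higher, with a median of 0.25. Whether the transcript end bears on these calls was not tested. HIST2H2BE and HIST3H2A have longer transcripts and moved in opposite directions in each line.

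Members typical of testis were at or under 2 TPM. HIST1H2AA and HIST1H2BA were listed at 0 in every library, and HIST1H1T, the testis linker histone, at 0 except in treated H146 (0.153, 0.445, 0 and 0.139 TPM, exact permutation *p* = 0.229). HIST3H3 was at 1.99, 1.08 and 0.426 TPM in untreated H82 and at 0 in each treated library, which no exact test of 3 against 3 can call (*p* = 0.1). Copies that are nearly identical share reads and are uncertain. HIST2H4A, HIST2H4B, HIST2H3A and HIST2H3C stayed under 1 TPM in all libraries. HIST2H2AA3 was at 0, 1.05 and 0 TPM in untreated and at 1.40, 1.36, 0.782 and 2.01 TPM in treated H146 (0.89, adjusted *p* = 0.041). That call was lost without untreated replicate 1 or 3 or treated replicate 1 or 4, and with library weights. It was also lost under the median of ratios and quantile normalization (adjusted *p* = 0.072 and 0.097). Its copy HIST2H2AA4 was at 0.171, 0.170 and 0.155 against 0.974, 0.189, 4.37 and 1.06 TPM in H146 (exact permutation *p* = 0.0571, the smallest reached by 3 against 4 as run).

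Replication-independent histones, most of which have poly(A) tails and are not confined to S phase, were taken as a list of 12. In H82, 6 of 10 tested with limma rose and none fell, beside 13.1% and 45.5% of all genes tested. None of the 10 was lower at an unadjusted *p* under 0.05, and their median was 0.75. The counts were 7 higher and none lower under the median of ratios, 5 and 2 under quantile normalization. The linker histones H1F0 and H1FX rose by 1.07 and 1.91 (adjusted *p* = 0.0049 and 0.0012), unlike HIST1H1C, and H2AFX, H2AFZ and H3F3A rose by 1.21, 0.70 and 0.80 (adjusted *p* = 0.035, 0.043 and 0.03). H2AFY2, a macroH2A gene, rose most (2.66, adjusted *p* = 0.0025). H2AFZ and H3F3A lost the call under quantile normalization (adjusted *p* = 0.066 and 0.052). In H146, 2 of 12 rose and 2 fell, beside 32.5% and 15.5% of all genes tested, with a median of -0.17. Under the median of ratios 2 of the 12 rose and 7 fell. H2AFX rose from 194, 299 and 200 to 498, 445, 711 and 708 TPM (1.35, adjusted *p* = 0.0018), and H3F3B, an H3.3 gene, fell from 1750, 1521 and 1853 to 496, 722, 620 and 666 TPM (-1.46, adjusted *p* = 0.00023). CENPA, the centromeric H3, was not called in either line, but under the median of ratios it was higher in H82 (0.92, adjusted *p* = 0.02) and lower in H146 (-0.58, adjusted *p* = 0.012).

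Of 18 genes for histone mRNA processing, 6 fell and 3 rose in H82, and 1 fell and 3 rose in H146. Over all genes tested, 45.5% were called lower and 13.1% higher in H82, and 15.5% and 32.5% in H146. Under the median of ratios the falls and rises among the 18 were 4 and 4 in H82 and 5 and 2 in H146. SLBP rose in H82 from 143, 156 and 139 to 202, 254 and 231 TPM (0.64, adjusted *p* = 0.0083), and NPAT fell there from 20.8, 25.7 and 19.5 to 6.74, 9.67 and 9.48 TPM (-1.26, adjusted *p* = 0.0018). Both calls held under both scalings. Neither gene was called in H146 (-0.22 and -0.19, adjusted *p* = 0.14 and 0.53). There SLBP was lower under the median of ratios (-0.54, adjusted *p* = 0.0082) but not called under quantile normalization (-0.12, adjusted *p* = 0.32). The largest rise and fall of H82 were LSM10, of the U7 particle that cleaves histone mRNA (1.45), and ZCCHC6, a uridylyltransferase (-1.30), and those of H146 were NCBP2, of the cap-binding complex (0.83), and UPF1, a decay helicase (-0.49). Among histone chaperones (18 tested) 4 fell and 1 rose in H82, led by ATRX (-1.40) and ASF1B (0.90), and 1 fell and 4 rose in H146, led by HJURP (-0.88) and CABIN1 (0.99). The median of ratios turned these counts to 1 lower and 4 higher in H82 and 4 lower and 3 higher in H146. CHAF1A, of the complex that loads H3 and H4 behind the fork, was not called in either line, but was lower in H146 under the median of ratios (-0.57, adjusted *p* = 0.0029) and quantile normalization (-0.33, adjusted *p* = 0.022).

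S phase genes were counted beside the members. Of all genes tested, 45.5% were lower and 13.1% higher in H82, and 15.5% and 32.5% in H146. Of 22 S phase genes in H82, limma called none lower (also none at an unadjusted *p* under 0.05) and 4 higher. TYMS, thymidylate synthase, was among the 4 (0.98, adjusted *p* = 0.03). The median of the 22 was 0.23, where that of all genes was -0.56. Under the median of ratios 12 were higher and none lower, and under quantile normalization 5 and 2. In H146, 4 were lower and 3 higher with a median of 0.03 (10 and 1 under the median of ratios, 5 and 5 under quantile normalization), CDT1, a replication licensing factor, falling most (-1.65) and GINS2, of the replicative helicase, rising most (1.12). PCNA, the sliding clamp, was at 539 to 561 TPM in untreated and 459 to 835 TPM in treated H82, and was not called in either line (0.24 and -0.22, adjusted *p* = 0.42 and 0.18), whereas the median of ratios gave 0.73 in H82 and -0.54 in H146 (adjusted *p* = 0.026 and 0.012). Quantile normalization gave PCNA -0.16 and -0.07 (adjusted *p* = 0.47 and 0.66).

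RNAs without a poly(A) tail were counted as well. Of 23 listed, 10 of 19 tested fell and 1 rose in H82, beside 45.5% and 13.1% of all genes, with a median of -1.20. In H146, 4 of 14 fell and 1 rose, beside 15.5% and 32.5% of all genes, with a median of -0.11. Under the median of ratios the falls and rises were 6 and 1 in H82 and 4 and 0 in H146. Their summed level was 2854 to 3305 TPM in untreated and 1231 to 1855 TPM in treated H82, and 3227 to 5692 TPM in untreated and 691 to 2927 TPM in treated H146. RN7SK was listed at 0 in every library. The largest changes in H82 were MALAT1 (-2.57) and RNU11 (2.08), and in H146 RNU11 (-2.30) and RNU12 (0.91). Treated replicates 3 and 4 of H146 had the least RN7SL1 (282 and 263 TPM, against 839 and 740 TPM in replicates 1 and 2). They were the lowest treated libraries for HIST1H2BK and HIST1H2BD, but the highest for HIST1H3J, HIST1H4K and HIST1H3G. Their part in the histone values was not tested.

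Cell type markers were counted too. Of 8 neuroendocrine markers, 4 fell and 1 rose in H82, and 2 of 7 tested fell and 1 rose in H146. Over all genes tested, 45.5% were called lower and 13.1% higher in H82, and 15.5% and 32.5% in H146. The summed level of the 8 markers ran from 981 to 1043 TPM in untreated and from 288 to 830 TPM in treated H82. In H146 it ran from 1597 to 1911 and from 1300 to 1657 TPM. The largest were SCG3 (-3.11) and INSM1 (2.19) in H82 and CHGB (1.63) and DLL3 (-0.60) in H146. A list of 10 markers of other cell types or epithelial states included EPCAM, KRT19 and FOXA2. The paper counts FOXA2 among neuroendocrine genes, so a level of this list need not mean other cells. Of the 10, 3 of 5 tested with limma rose in H82 and none fell (none also at an unadjusted *p* under 0.05). In H146, 4 of 7 fell and 1 rose, and KRT19 fell most (-3.97). The sum of the 10 in H82 was 1.82 to 3.51 TPM untreated and 431 to 530 TPM treated. In H146 it was 2163 to 2301 and 753 to 898 TPM. CD3E, which defines T cells, was at 0 in H82 and at most 0.102 TPM in H146. ALB, the albumin gene, made up most of it in H82 (515, 310 and 444 TPM treated), and treated replicate 2 of H82, in which HIST1H2BK was highest, also stood apart in FOXA2 (35.7 TPM) and KRT19 (50.2 TPM). Whether these markers bear on the histone values was not tested.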

How the data were processed

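RNA-seq of 13 libraries was analysed. Per the labels and the study's methods, reads were trimmed with Trim Galore 0.4.4, mapped to hg38 with STAR and assigned to genes of GENCODE release 28, RNA and libraries were made at GENEWIZ, and the authors compared groups with DESeq2. The authors deposited 1 table of TPM per line, in which each library sums to 1000000. With TPM alone the depth is unknown, and no interval from counts is given. Library selection (poly(A) or ribosomal depletion), strand, the treatment of reads that map to several copies and the gene length behind TPM are not given in the sources used here. The first decides how much RNA without a poly(A) tail is seen.

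Because the values are TPM, limma 3.58.1 (R 4.3.3, lmFit and eBayes with trend) was run on log2(TPM + 1) for each line, on every gene that reached 1 TPM in 3 or more libraries. Tests were two-sided, *p* values were adjusted by Benjamini-Hochberg across the whole table, and 0.05 was the threshold. The pseudocount of 1 understates the change of low genes. The difference between lines was the interaction of line and treatment over all 13 libraries. Members under the filter were compared with a two-sided exact permutation test of mean log2(TPM + 1). Lists and class sums have no test. The fits were tested on simulated data. Named members were the 4 coding members of each class with the highest mean TPM, the 5 largest rises and falls in each line among called members without overlap between groups, members called in both lines, and fixed testis-type and near-identical copies. From each list, the largest rise and fall and set genes were named. Other genes are marked or serve as values beside a result. The members, the lists and these rules were chosen with earlier results of these data known.

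Other settings tried were pseudocount 0.1, a filter that kept any gene above 0 TPM, a mean above 1 TPM, median of ratios, quantile normalization, TPM without mitochondrial genes, a replicate block, eBayes without trend, library weights (statmod 1.5.0), 0.1 as the adjusted threshold, calls only from an absolute log2 fold change of 1, and leaving out each library. Averaging the closest libraries of a group as 1 was chosen after seeing the data: untreated replicates 1 and 3 of H82 and treated replicates 3 and 4 of H146, whose median absolute log2 difference over genes at 50 to 500 TPM was 0.0492 and 0.0738, against up to 0.388 in other pairs. No libraries were identical. Sequences and positions came from RefSeq (GRCh38.p14) and GENCODE release 44. All 85 members matched RefSeq and 84 matched GENCODE. Python 3.11.15 with pandas 2.3.3, numpy 2.4.6, scipy 1.17.1 and matplotlib 3.10.9 was used.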

Additional observations from a re-analysis of the deposited data

Results flagged for a closer look

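In H146 treated libraries, 9 of 41 named members and 1 of 6 class sums had a library far from the other 3 by Dixon's criterion (gap to the nearest library over the range of the group), which chance meets in about 1 in 20 groups. Treated replicate 2 was the far one for HIST1H1C (39.3 TPM), HIST1H1E (7.34 TPM), HIST1H3B (4.15 TPM), HIST1H3H (12.5 TPM), HIST1H4J (9.99 TPM), HIST2H2BA (0.423 TPM), HIST2H2BC (41.7 TPM), HIST2H2BE (68.1 TPM) and the H1 sum (50.9 TPM). Replicate 4 was far for HIST2H3A, at 0.0604 TPM where the others were at 0. HIST2H2BA was likewise at 0 outside replicate 2. For HIST2H3A and HIST2H2BA the criterion is at its maximum by construction, so the rate of 1 in 20 does not apply.

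The effect of FHD-286 differed between the lines (limma interaction, H146 minus H82, adjusted *p* under 0.05) for 26 of 59 members in that fit (44.1%), beside 59.3% of all 24374 genes. Of 32 named members in that fit, some of them named for their calls, 20 differed. Positive differences were found for HIST2H2BE (3.44), HIST2H2BC (2.65), HIST1H3J (2.32), HIST1H1C (2.24), HIST1H2BG (2.14), HIST2H2BD (2.07), HIST4H4 (1.96), HIST1H2BB (1.74, against H82 libraries all listed at 0), HIST1H4K (1.52), HIST1H2BD (1.37), HIST2H2BA (1.16), HIST1H2AE (1.05) and HIST1H2AC (1.04). Negative ones were found for HIST2H2AC (-3.42), HIST3H2A (-2.60), HIST1H4J (-2.23), HIST1H4I (-1.82), HIST1H2BK (-1.59), HIST3H2BA (-1.37) and HIST1H3B (-1.26). The median over all genes was 0.75. HIST1H4K, HIST1H2BD, HIST2H2BA, HIST1H2AE and HIST1H2AC lost the call under the median of ratios and under quantile normalization. HIST1H3J and HIST2H2BD lost it under quantile normalization alone. HIST1H2AE lost it in 9 of 13 refits that left out a library, and HIST1H3B in 7.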

How the results depend on the processing

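Falls called in H82 (10) numbered 6 with a log2 fold change of at least 1, 4 under the median of ratios, 2 under quantile normalization, 6 with the closest libraries averaged and 4 to 12 with 1 library left out. Rises in H82 (7) numbered 4 without the filter, 13 under quantile normalization and 2 to 4 with 1 library left out. The H82 member median (-0.34) was -0.13 without the filter, 0.054 under the median of ratios, 0.58 under quantile normalization, -0.47 without mitochondrial genes and -0.40 to -0.23 with 1 library left out. Falls in H146 (11) numbered 6 without the filter, 17 with library weights, 7 with the closest libraries averaged and 5 to 15 with 1 library left out, and rises (17) 11 under either scaling and 11 to 18. The H146 member median (0.25) was -0.048 under the median of ratios, -0.0076 under quantile normalization and -0.042 to 0.28 with 1 library left out, the lowest without treated replicate 2. Interaction falls (9) were 20 under quantile normalization and 7 to 11, and rises (17) 10 under the median of ratios, 6 under quantile normalization and 15 to 19.

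Under the median of ratios the log2 ratios of class sums in H82 were -0.64 for H1, 0.99 for H2A (0.34 without mitochondrial genes), 0.23 for H3, -0.091 for H4 and 0.45 for all classes, and in H146 -0.029 for H3, -0.76 for H4 and -0.20 for all. With 1 library left out they were, in H82, -1.25 to -1.02 (H1), 0.41 to 0.57 (H2A), 0.33 to 0.92 (H2B), -0.48 to -0.15 (H3), -0.75 to -0.45 (H4) and -0.15 to 0.036 (all, above 0 without untreated or treated replicate 1, 0.0075 without the former). In H146 they were 0.19 to 0.81 (H1), -1.19 to -0.88 (H2A), 0.94 to 1.31 (H2B), 0.21 to 0.41 (H3), -0.59 to -0.17 (H4) and -0.10 to 0.20 (all, below 0 without treated replicate 2). HIST4H4 in H82 turned to 0.052 under quantile normalization.

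Same-numbered libraries shared only a number: deviations from group means correlated by -0.111 to 0.107 between untreated and treated libraries of a line. With a replicate block H82 had 8 falls and 7 rises, and H146 had 7 falls and 16 rises, with treated replicate 4 given a level of its own. Causes of these changes were not tested. Reads per library are unknown, so a limit from depth could not be set for members listed at 0.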
